A study of Homo sapiens with 10 samples.

Results

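PAX8, WT1, SOX17, SOX3, MECOM, EMX2, NPAS3 and MEIS1 encode developmental transcription factors, and these 8 of the 58222 genes in the deposited table were followed through 10 libraries from OVCAR-3, a human cell line established from an ovarian adenocarcinoma. They were chosen by symbol, with earlier results of the same libraries known, so their levels and fold changes are given as a description and carry no p-value. All 8 were present in the table and all 8 were among the 15167 genes tested, which had at least 1 TPM (a unit of transcript abundance, corrected for length and scaled to the same total in every library) in at least 2 libraries. Every group came from the same parental line and held 2 libraries, which the series describes as biological replicates. Treated cells were the survivors of a 24 hour exposure to the DNA-crosslinking platinum drug cisplatin at 0.5 uM, given without any gel, after 2 weeks of recovery. Day1 cells were immobilized in silica gel, a porous inorganic matrix that holds cells in place, for 24 hours, and Day3 cells for 3 days. Extracted cells were the survivors of a 3 day immobilization after 2 weeks of recovery. Control cells grew in standard culture, without gel or drug, and no recovery period is listed for them. In Treated or Extracted against Control cells, the exposure and the 2 weeks of recovery therefore cannot be told apart.

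Lineage factors bind DNA through distinct domains and keep the identity of the tissue in which a tumor arose. PAX8, a paired-box factor, and SOX17, an SRY-related HMG-box factor, mark the Müllerian epithelium of the fallopian tube and most serous ovarian carcinomas. WT1 is a zinc finger protein of the urogenital ridge and is used in pathology as a marker of serous carcinoma. EMX2 is a homeobox factor required for the urogenital tract in mice, and MEIS1 is a TALE-class homeobox protein that binds DNA beside HOX and PBX partners. MECOM, which lies in a region often amplified in ovarian carcinoma, encodes zinc finger proteins that recruit the corepressor CtBP. SOX3 and NPAS3 are better known from the nervous system, SOX3 as a SOXB1 factor of neural progenitors and NPAS3 as a bHLH-PAS factor of neurons.

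The sequences just upstream of WT1, NPAS3 and SOX3 are shown because these 3 genes had the widest range among the 8 factors across the 10 libraries. Bases are from RefSeq on GRCh38.p14, written 5′ to 3′ on the strand of the gene, and end at the last base before the RefSeq start or before the first exon base in GENCODE 29. The WT1 stretch lies on the minus strand at chr11:32435631-32435789, the NPAS3 stretch on the plus strand at chr14:32938629-32938878 and the SOX3 stretch on the minus strand at chrX:140505117-140505319. Capitals mark motif matches found on either strand.
WT1: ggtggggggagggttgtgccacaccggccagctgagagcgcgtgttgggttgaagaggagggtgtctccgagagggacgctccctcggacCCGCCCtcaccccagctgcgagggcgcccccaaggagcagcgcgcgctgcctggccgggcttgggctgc
NPAS3: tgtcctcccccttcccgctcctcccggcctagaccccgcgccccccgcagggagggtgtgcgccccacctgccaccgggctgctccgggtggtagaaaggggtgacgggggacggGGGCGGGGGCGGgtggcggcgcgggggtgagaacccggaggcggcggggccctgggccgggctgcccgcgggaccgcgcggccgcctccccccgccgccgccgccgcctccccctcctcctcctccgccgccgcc
SOX3: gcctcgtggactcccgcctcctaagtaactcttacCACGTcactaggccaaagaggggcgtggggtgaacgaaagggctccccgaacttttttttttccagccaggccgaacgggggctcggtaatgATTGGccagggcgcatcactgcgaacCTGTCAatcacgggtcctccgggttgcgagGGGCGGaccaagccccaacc
The WT1 stretch held 1 match to the GC box GGGCGG, on the reverse strand, 160 bases before the RefSeq start, which lies inside the annotated GENCODE gene, beyond the end of the printed bases. NPAS3 held 2 adjoining GC boxes, 135 and 129 bases before the RefSeq start, and its 250 bases were 82.8% G or C, against a median of 58.0% over 27305 RefSeq windows of that length. This NPAS3 start is not the start of any GENCODE 29 transcript, and the stretch lies in an intron of the GENCODE gene. SOX3 held a GC box 67 bases before the RefSeq start, which also lies inside the GENCODE gene, beyond the printed bases, and, on the reverse strand, a match each to CCAAT, to TGACAG (a core bound by MEIS proteins) and to ACGTG (a core bound by bHLH-PAS proteins).

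Of the 7 factors with a RefSeq window, 5 held a GC box, 4 a CCAAT box, 2 the SOX core ATTGT, 1 the core TGACAG, 1 the core ACGTG and 1 the core GTGGGCG shared by WT1 and EGR proteins. The GTGGGCG match, in the EMX2 window, overlapped a GC box, and that window lies wholly inside the GENCODE gene. None of the 7 held TATAAA. Among all 27305 windows, searched on both strands, 42.3% held a GC box, 33.0% CCAAT, 25.2% ATTGT, 13.1% TGACAG, 18.7% ACGTG, 8.67% GTGGGCG and 11.1% TATAAA.

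TPM correct for length, so levels can be set side by side between genes, and they are shares of each library's RNA. The libraries held no read counts, so depth is unknown and no counting interval could be given. Between 13896 and 14173 genes reached 1 TPM in each library, and the 2 replicates of a group correlated at r = 0.983 to 0.991 over the tested genes on the log2(TPM + 1) scale. Mitochondrial mRNA took 10.4 to 10.8% of the TPM in Treated libraries, 2.29 to 3.92% in Day1 libraries, 5.97 to 7.61% in Day3 libraries, 10.6 to 11.1% in Extracted libraries and 15.8 to 16.7% in Control libraries. Annotated small RNA took 14.7% of Treated replicate 2 and 3.21% of Extracted replicate 1, against 0.196 to 1.24% of the other 8 libraries. These shares move with the groups, and their part in the results below was not tested. In these bulk libraries, fewer cells of a type and less RNA per cell cannot be told apart.

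PAX8 and EMX2 were the most abundant of the 8 factors, at the 97.8th and 95.1st percentile of mean TPM among tested genes. MEIS1 followed at the 87.5th, SOX17 at the 78.9th, WT1 at the 76.4th, MECOM at the 60.4th, NPAS3 at the 46.4th and SOX3 at the 28.4th. PAX8 alone made up 44.8 to 58.4% of the summed TPM of the 8 genes in a library. That sum was 613 to 631 TPM in Treated libraries, 721 to 835 in Day1, 855 to 905 in Day3, 677 to 701 in Extracted, against 808 to 904 in Control.

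**Figure D1:**
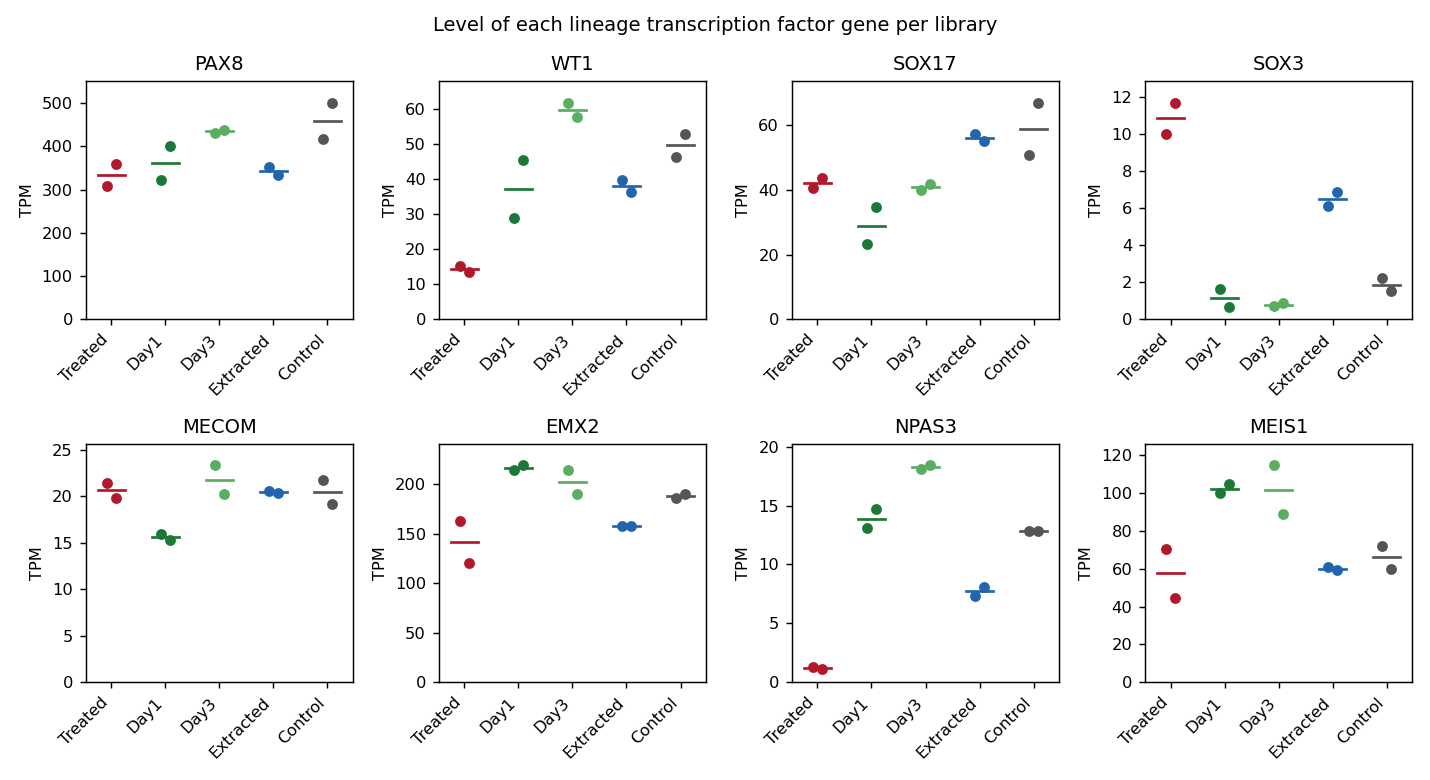
TPM of the 8 transcription factor genes (1 panel each, linear axis from 0) in the 2 libraries of each group; points are libraries and horizontal bars are group means. NPAS3 and WT1 are lowest in Treated libraries, SOX3 is highest there, and MECOM differs least between its highest and lowest library.

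PAX8, the paired-box factor of Müllerian epithelium (chr2:113215997-113278950, minus strand), stayed among the abundant transcripts in every library. It stood at 309 and 358 TPM in Treated libraries, 323 and 401 in Day1, 432 and 437 in Day3, 352 and 333 in Extracted, against 416 and 500.5 in Control. The highest library was 1.62 times the lowest. Both Control libraries and both Day3 libraries lay above all Day1, Extracted and Treated ones, while the Treated, Extracted and Day1 libraries overlapped. The mean was 333 ± 35.0 TPM in Treated and 458 ± 59.9 TPM in Control cells (SD, n = 2 each), a log2 fold change of -0.46 ± 0.13 (SE). Extracted cells differed from Control by -0.41 ± 0.13 and Treated from Extracted by -0.04 ± 0.13 on that scale.

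SOX17, the HMG-box partner of the Müllerian program (chr8:54457935-54460888, plus strand), was lowest in Day1 cells. Its libraries held 40.5 and 43.6 TPM in Treated, 23.2 and 34.6 in Day1, 40.0 and 41.8 in Day3, 57.2 and 55.0 in Extracted, against 50.8 and 66.8 in Control. The Day1 libraries lay below all others, the Day3 and Treated libraries overlapped in the middle, and the Extracted and Control libraries overlapped at the top. Day1 cells averaged 28.9 ± 8.10 TPM against 58.8 ± 11.4 TPM in Control cells (SD, n = 2 each), a log2 fold change of -1.01 ± 0.18 (SE). The difference from Control was -0.50 ± 0.18 in Day3 and -0.05 ± 0.18 in Extracted cells. Between stages it was 0.51 ± 0.18 in Day3 against Day1 and 0.45 ± 0.18 in Extracted against Day3 cells.

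WT1, the zinc finger factor (chr11:32387775-32435630, minus strand), was lowest in Treated cells. The Treated libraries held 15.3 and 13.4 TPM, the Day1 libraries 28.9 and 45.4, the Day3 libraries 61.7 and 57.7, the Extracted libraries 39.8 and 36.4 and the Control libraries 46.3 and 52.8. The Treated values were below every other library, the Day3 values above every other, and the Day1 pair was wide enough to overlap the Extracted pair. Treated cells averaged 14.4 ± 1.36 TPM against 49.6 ± 4.61 TPM in Control cells (SD, n = 2 each), a ratio of 0.290 and a log2 fold change of -1.72 ± 0.18 (SE). Against Extracted cells, which had recovered for the same 2 weeks, the Treated difference was -1.35 ± 0.18.

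NPAS3, the bHLH-PAS factor (chr14:32934933-33804176, plus strand), had groups that did not overlap with one another. Treated libraries held 1.27 and 1.08 TPM, Day1 libraries 13.1 and 14.7, Day3 libraries 18.1 and 18.4, Extracted libraries 7.33 and 8.09 and Control libraries 12.9 and 12.8. The order from low to high was Treated, Extracted, Control, Day1 and Day3, and the highest library was 17.1 times the lowest. Treated cells averaged 1.18 ± 0.140 TPM against 12.9 ± 0.0403 TPM in Control cells (SD, n = 2 each), a log2 fold change of -2.67 ± 0.12 (SE), and the ratio of mean TPM was 0.0914. Extracted cells stood between these groups, at -0.67 ± 0.12 from Control, and Treated cells were lower than Extracted by a log2 difference of -2.00 ± 0.12.

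SOX3, the SOXB1 factor (chrX:140502985-140505116, minus strand), ran in the opposite direction. It stood at 10.0 and 11.7 TPM in Treated libraries, 1.66 and 0.649 in Day1, 0.724 and 0.882 in Day3, 6.10 and 6.89 in Extracted, against 2.22 and 1.55 in Control. Treated libraries were the highest, Extracted libraries came next with no overlap, and the Control, Day1 and Day3 libraries overlapped along the order. Treated cells averaged 10.8 ± 1.19 TPM against 1.88 ± 0.477 TPM in Control cells (SD, n = 2 each), a ratio of 5.76 and a log2 fold change of 2.04 ± 0.23 (SE). Extracted cells differed from Control by 1.39 ± 0.23 and from Day3 by 2.05 ± 0.23. The added pseudocount of 1 TPM makes these fold changes smaller than the ratios of a gene at this level.

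EMX2, the urogenital homeobox factor (chr10:117542444-117549546, plus strand), varied within a narrow range. It held 163 and 121 TPM in Treated libraries, 215 and 219 in Day1, 215 and 190.1 in Day3, 157 and 158 in Extracted, against 186 and 190.4 in Control. The Day1 libraries were highest, 1 of them barely above a Day3 library, the Day3 and Control libraries overlapped below them, and the Treated and Extracted libraries overlapped at the bottom. Treated cells averaged 142 ± 29.6 TPM against 188 ± 3.25 TPM in Control cells (SD, n = 2 each), a log2 fold change of -0.42 ± 0.13 (SE).

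MEIS1, the TALE-class HOX cofactor (chr2:66433452-66573869, plus strand), was higher while cells were in the gel. Day1 libraries held 100.1 and 105 TPM and Day3 libraries 115 and 88.8, against 72.1 and 59.9 in Control. The recovered cells held 70.7 and 44.7 TPM in Treated and 60.8 and 59.1 in Extracted libraries. The Treated, Extracted and Control libraries overlapped, and all 6 lay below the 4 gel libraries. The log2 fold change was 0.63 ± 0.20 (SE) in Day1 and 0.61 ± 0.20 in Day3 cells against Control, and -0.74 ± 0.20 in Extracted against Day3 cells.

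MECOM, the CtBP-binding zinc finger gene (chr3:169083499-169663618, minus strand), was the steadiest of the 8. It held 21.5 and 19.8 TPM in Treated libraries, 15.9 and 15.3 in Day1, 23.3 and 20.2 in Day3, 20.5 and 20.4 in Extracted, against 21.8 and 19.2 in Control. The Day1 libraries lay below the other 8, which overlapped along the order of group means. The log2 fold change was -0.37 ± 0.12 (SE) in Day1 cells and 0.01 ± 0.12 in Treated cells against Control.

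**Figure D2:**
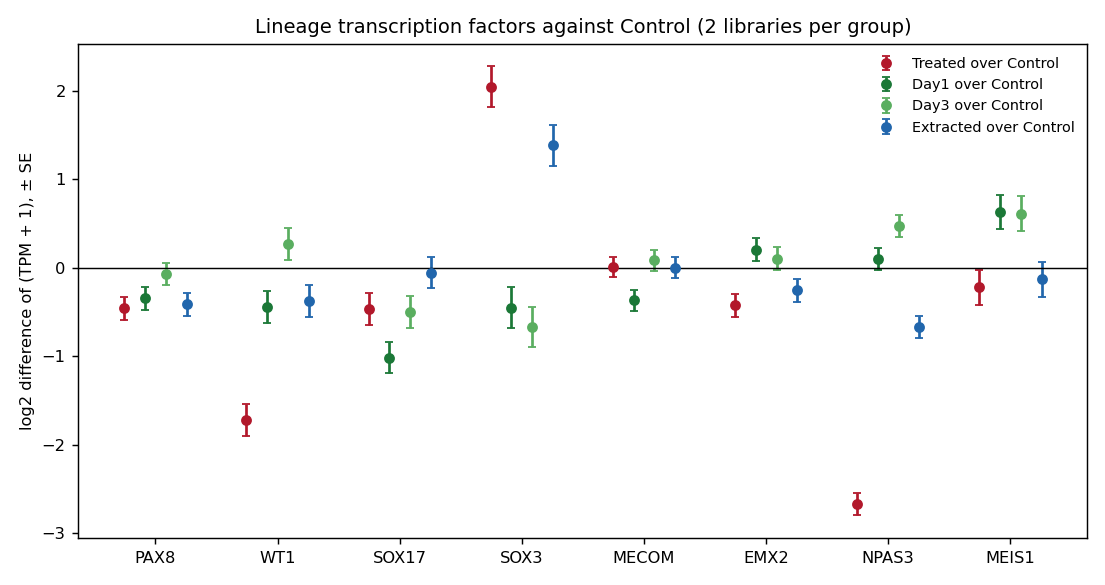
Log2 fold changes of the 8 genes in Treated, Day1, Day3 and Extracted cells against Control, with limma standard errors. Values are on the log2(TPM + 1) scale, and the horizontal line marks 0. The values of 2 or more in size are those of NPAS3 and SOX3 in Treated cells.

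Because the factors were chosen with these contrasts known, the counts that follow are a description beside the share of all tested genes called by limma at a Benjamini-Hochberg adjusted p under 0.05, and nothing is read from them. In Treated against Control cells 5 of 8 passed, with SOX3 higher and PAX8, WT1, EMX2 and NPAS3 lower, where 24.5% of all genes were called (6.28% higher, 18.2% lower). In Day1 against Control cells 2 of 8 passed, with MEIS1 higher and SOX17 lower, where 20.7% were called (14.4% higher, 6.28% lower). In Day3 against Control cells NPAS3 alone passed, higher, where 9.82% were called (5.18% higher, 4.64% lower). In Extracted against Control cells SOX3 passed as higher and NPAS3 as lower, where 1.99% were called (0.857% higher, 1.13% lower). These 4 comparisons share the Control libraries.

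None of the 8 passed in Day3 against Day1 cells, where 2.35% of genes were called (0.659% higher, 1.69% lower) and 4 of the 8 had an unadjusted limma p under 0.05. In Extracted against Day3 cells 4 of 8 passed, with SOX3 higher and WT1, NPAS3 and MEIS1 lower, where 17.1% of genes were called (6.30% higher, 10.8% lower). WT1 and NPAS3 passed as lower in Treated against Extracted cells, where 12.1% were called (3.24% higher, 8.87% lower). The median log2 fold change of the 8 was -0.44 in Treated against Control cells, beside -0.15 over all tested genes, and -0.35 beside 0.12 in Day1 against Control cells. Median-of-ratios scaling moved these medians of all genes to -0.0019 and 0.0008.

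Leaving out any 1 library of a comparison kept the calls of SOX17 in Day1 against Control cells, of WT1, SOX3 and NPAS3 in Treated against Control, of SOX3 and NPAS3 in Extracted against Day3 and of WT1 and NPAS3 in Treated against Extracted. The calls of MEIS1 in Day1, NPAS3 in Day3 and SOX3 and NPAS3 in Extracted cells against Control, and of WT1 in Extracted against Day3, were each lost whichever of the 4 libraries was left out. PAX8 in Treated against Control was lost without Control replicate 2 or Treated replicate 1. EMX2 in that comparison was lost without Control replicate 1, Control replicate 2 or Treated replicate 2, and MEIS1 in Extracted against Day3 without Day3 replicate 1, Extracted replicate 1 or Extracted replicate 2. Median-of-ratios scaling, which sets the typical gene equal between libraries, ended the calls of PAX8 and EMX2 in Treated against Control, MEIS1 in Day1 against Control and WT1 in Extracted against Day3, and added MECOM as lower in Day1 against Control and as higher in Day3 against Day1. Rescaling to nuclear protein-coding genes alone ended those of MEIS1 in Day1 and NPAS3 in Day3 against Control, and added PAX8, WT1 and MECOM as lower in Day1 against Control, SOX17 as lower in Day3 against Control, EMX2 as lower in Extracted against Control and against Day3, WT1 and MECOM as higher in Day3 against Day1 and SOX3 as higher in Treated against Extracted.

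Across the 10 libraries, which fall into 5 groups, WT1 and NPAS3 had the highest pairwise correlation among the 8 genes on the log2(TPM + 1) scale (Pearson r = 0.94), followed by EMX2 and MEIS1 at r = 0.90. SOX3 had the lowest, at r = -0.91 with NPAS3 and r = -0.90 with EMX2. The libraries share their groups, so these coefficients describe the group pattern and carry no test.

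The annotated neighbors of the 8 genes were read beside them, since antisense transcripts overlap several of them and the strand setting of the counts is not given in the sources used here. Reads of an overlapping sense and antisense pair therefore cannot be told apart. EMX2OS, the antisense transcript of EMX2 (chr10:117473215-117545068, minus strand), held 27.8 and 25.9 TPM in Treated, 37.1 and 30.7 in Extracted and 50.3 and 58.0 in Control libraries. The 2 Treated values lay below all others, and EMX2OS fell in Treated against Control cells by limma, with a log2 fold change of -0.98 and an adjusted p of 0.000942, a call kept without any 1 of the 4 libraries. It also fell in Extracted against Control cells (-0.66, adjusted p = 0.0356), a call lost without any 1 of them.

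WT1-AS, which starts within the annotated WT1 gene on the other strand (chr11:32435518-32458769), was called in none of the 7 comparisons. It averaged 2.63 TPM in Treated, 2.61 in Day1, 3.90 in Day3, 3.98 in Extracted, against 4.38 in Control cells, and its log2 fold change in Treated against Control cells was -0.56 (adjusted p = 0.135). The printed WT1 stretch lies within the annotated span of WT1-AS. RF02205 and RF02209, short RNA fragments annotated near WT1, averaged under 3 TPM in every group and were called in none of the 7 comparisons. RF02204, another such fragment 681 bases from WT1, held 828 TPM in Day1 replicate 2 and 0 in every other library, and was not tested. PSD4, a protein-coding gene 6601 bases from PAX8, was called in none of the 7 comparisons. RPL22P1, a pseudogene inside MECOM that can share reads with RPL22, rose in Day1 (1.22, adjusted p = 0.0058), Treated (1.08, adjusted p = 0.00784) and Day3 cells (0.89, adjusted p = 0.0361) against Control, and the Day3 call was lost without any 1 of its 4 libraries. PAX8-AS1, MEIS1-AS2, MEIS1-AS3 and LINC01798 did not reach the level needed for testing, and SOX3 and NPAS3 had no annotated gene within 10 kb.

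**Figure D3:**
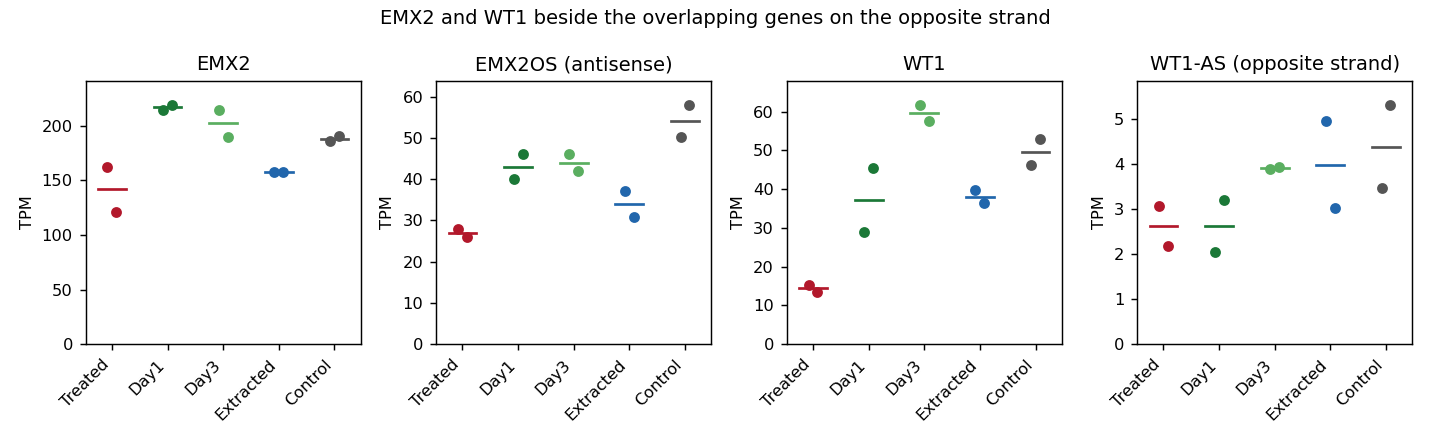
TPM of EMX2 beside its antisense transcript EMX2OS, and of WT1 beside WT1-AS, in the 2 libraries of each group (points, linear axes from 0; bars are group means). EMX2OS is lowest in Treated libraries, while WT1-AS lies under 6 TPM throughout.

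The relatives and partners of the 8 factors were counted in 8 lists of urogenital factors, HOX genes, TALE homeobox genes, SOX, PAX, bHLH-PAS and coactivator, PRDM and CtBP, and EGR and WT1-associated genes, 159 genes in all. All 159 were in the table and 89 were tested. In Treated against Control cells 33 of the 89 were called (37.1%, against 24.5% of all tested genes), 9 higher and 24 lower. The median log2 fold change of the 89 was -0.15, equal to that of all genes at this precision. Without Control replicate 1 the count was 19 and without Control replicate 2 it was 10, and median-of-ratios scaling split 31 calls into 14 higher and 17 lower.

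Among urogenital factors in Treated against Control cells, 2 of 18 rose, 8 fell and 8 were not called. Over all tested genes, 6.28% were called higher and 18.2% lower in this comparison. The lists were chosen with results known, so their counts are a description. GATA2, a zinc finger factor, averaged 1.99 TPM in Treated and 6.53 TPM in Control cells, a log2 fold change of -1.35 (limma, adjusted p = 0.00228), and FOXC1, a forkhead factor, 4.09 and 10.6 TPM (-1.19, adjusted p = 0.000427). SALL1 (0.79) and FOXJ1, the regulator of motile cilia (0.76), were the 2 that rose, and both calls were lost without any 1 of the 4 libraries. Both genes lay near the filter of 1 TPM. SALL1 averaged 1.43 TPM in Treated and 0.407 TPM in Control cells, and FOXJ1 2.33 and 0.971 TPM. GATA4 and EMX1 were listed at 0 in every library, and PAX2, the paralog of PAX8 in the kidney and Müllerian duct, reached at most 0.167 TPM.

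The TALE group held the partners of MEIS1, and 1 of 10 rose and 3 fell, beside 6.28% of all tested genes called higher and 18.2% lower. PBX2, which binds DNA with MEIS and HOX proteins, averaged 39.8 TPM in Treated and 58.5 TPM in Control cells. PBX2 fell by 0.54 on the log2 scale (adjusted p = 0.00272), and MEIS3, a paralog of MEIS1, rose by 0.59 (adjusted p = 0.0148). None of the 21 tested HOX genes was called in this comparison, in which 3 had an unadjusted limma p under 0.05. HOXA5 and HOXA3 were the most abundant of them, at 40.6 to 61.0 and 26.2 to 47.1 TPM over the 10 libraries.

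Of 8 other SOX genes, SOX9 rose (0.66, limma, adjusted p = 0.0112) and SOX5 (-1.02), SOX6 (-1.02) and SOX11 fell in Treated against Control cells. Over all tested genes, 6.28% were called higher and 18.2% lower in this comparison. SOX2, the SOXB1 paralog of SOX3, stood at 30.7 to 37.6 TPM over the 10 libraries, a narrow range beside the 18.0-fold range of SOX3, and was named after its values were seen. Among 16 bHLH-PAS and coactivator genes related to NPAS3, 2 rose and 7 fell, beside 6.28% of all tested genes called higher and 18.2% lower. EPAS1, the hypoxia-inducible factor HIF-2α, averaged 32.2 TPM in Treated and 13.4 TPM in Control cells (1.22, adjusted p = 0.00609), and NPAS2, a paralog of the clock gene, rose by 0.91. ARNT2, a dimerization partner of bHLH-PAS proteins in neural tissue, fell (-0.93, adjusted p = 0.00506), as did the partner ARNT.

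PRDM6 (-0.88) and PRDM10 (-0.54) fell and none rose among 9 relatives and partners of MECOM in Treated against Control cells. Beside them, 6.28% of all tested genes were called higher and 18.2% lower. Neither PRDM call held without Control replicate 2. Neither PAX gene that was tested, PAX6 or PAX9, was called in this comparison, in which both had an unadjusted limma p under 0.05. Of 5 EGR and WT1-associated genes, 3 rose and 1 fell, beside 6.28% of all tested genes called higher and 18.2% lower. EGR1, an immediate early zinc finger factor whose binding site resembles that of WT1, averaged 48.7 ± 5.53 TPM in Treated and 19.2 ± 0.358 TPM in Control cells (SD, n = 2 each), with a log2 fold change of 1.30 and an adjusted p of 0.000304. EGR3 rose by 1.14 and BASP1, a WT1 corepressor, by 0.56, while WTIP, a WT1-interacting LIM protein, fell (-0.91, adjusted p = 0.00688). Of the genes named for Treated against Control cells, GATA2, FOXC1, PBX2, EGR1, BASP1 and WTIP kept their calls without any 1 of the 4 libraries, and the others lost theirs without Control replicate 2.

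**Figure D4:**
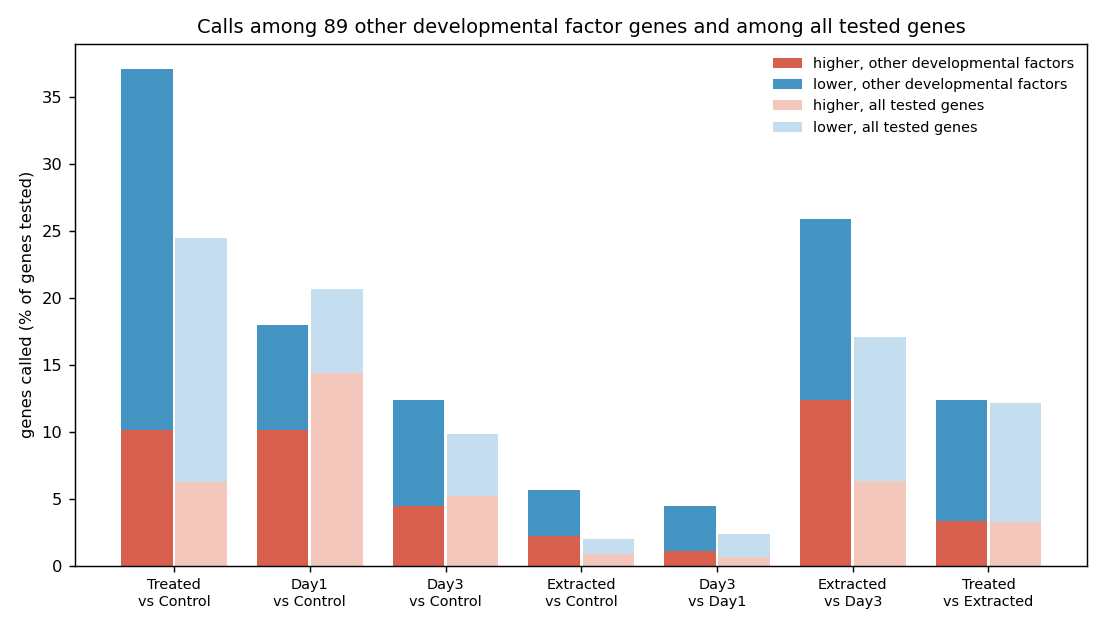
Share of tested genes called higher or lower by limma at an adjusted p under 0.05 in 7 comparisons, for the 89 tested relatives and partners and for all 15167 tested genes. In Treated against Control cells 37.1% of the 89 and 24.5% of all genes were called.

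In Day1 against Control cells 16 of the 89 were called (18.0%, against 20.7% of all tested genes), 9 higher and 7 lower. ARNTL, the clock partner BMAL1, averaged 31.9 TPM in Day1 and 10.4 TPM in Control cells (1.55, adjusted p = 0.00325), and SOX4, a SOXC factor, 28.1 and 13.6 TPM (0.99, adjusted p = 0.000604). HOXB9 rose by 1.40 (adjusted p = 0.00775), TGIF1, a TALE repressor of TGF-beta signaling, by 0.69 and MKX, a TALE factor of tendon, by 0.91. EGR1 (-0.99), SIM1 (-0.76), PBX4 (-1.08) and SALL4 (-0.96) fell. ARNTL, SOX4, SOX9, TGIF1, SIM1 and EGR1 kept their calls without any 1 of the 4 libraries, and HOXB9, MKX, PBX4 and SALL4 lost theirs without Control replicate 2. Leaving out either Control library or Day1 replicate 1 lowered the number of calls, while leaving out Day1 replicate 2 raised it. Rescaling on nuclear protein-coding genes gave 6 higher and 14 lower, against 7 higher and 9 lower under median-of-ratios scaling.

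In Day3 against Control cells 11 of the 89 were called (12.4%, against 9.82% of all tested genes), 4 higher and 7 lower. GATA2 averaged 1.54 TPM in Day3 and 6.53 TPM in Control cells (-1.57, adjusted p = 0.00322) and EGR1 8.63 and 19.2 TPM (-1.07, adjusted p = 0.00279). These 2 calls were kept without any 1 of the 4 libraries, while those of PBX4 (-0.97), SALL4 (-0.88), WTIP (-0.80), SOX4 (0.71), HOXB7 (0.68), HIF1A (0.47) and HOXA5 (0.47) were lost without Control replicate 1 or Day3 replicate 1. The count fell to 2 without Control replicate 1 or Day3 replicate 1, 3 without Control replicate 2 and 4 without Day3 replicate 2, and rescaling on nuclear genes called 4 higher and 14 lower. From Day1 to Day3, 4 of 89 were called (4.49%, against 2.35%), with HOXA5 higher and GATA2, TGIF1 and MKX lower. None of these 4 remained when Day1 replicate 1, Day3 replicate 1 or Day3 replicate 2 was left out, and 13 were called without Day1 replicate 2.

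In Extracted against Control cells 5 of the 89 were called (5.62%, against 1.99% of all tested genes). EGR1 averaged 39.6 TPM in Extracted and 19.2 TPM in Control cells (1.00, adjusted p = 0.0142) and SOX9 rose by 0.89 (adjusted p = 0.0209). PBX2 averaged 39.6 TPM in Extracted and 58.5 TPM in Control cells (-0.55, adjusted p = 0.0192). Leaving out any 1 of the 4 libraries of this comparison left none of the 89 called, and rescaling on nuclear genes gave 2 higher and 9 lower. None of the 21 HOX genes was called, with 2 at an unadjusted p under 0.05.

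Against Day3 cells, 23 of the 89 were called in Extracted cells (25.8%, against 17.1% of all tested genes), 11 higher and 12 lower. EGR1 rose the most (2.07, adjusted p = 8.57e-05), followed by GATA2 (1.43), EPAS1 (1.36), PBX4 (1.35), NPAS2 (1.26) and HOXB3 (0.93). SOX6 (-1.47), FOXJ1 (-1.06), SOX4 (-0.92) and PBX2 (-0.56) fell. FOXJ1 was low, at 0.381 TPM in Extracted and 1.88 TPM in Day3 cells on average. The calls of NPAS2 and FOXJ1 were lost without Extracted replicate 2 and those of the other 8 named genes were kept. The count was 12 without Day3 replicate 1 or Extracted replicate 2 and 15 without Day3 replicate 2, and median-of-ratios scaling split 25 calls into 15 higher and 10 lower.

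Treated and Extracted cells had both recovered for 2 weeks, and 11 of the 89 were called between them (12.4%, against 12.1% of all tested genes), 3 higher and 8 lower in Treated cells. FOXJ1 (1.27, from 0.381 TPM in Extracted to 2.33 TPM in Treated cells), EGR3 (0.97) and BASP1 (0.48) rose. GATA2 (-1.20), FOXC1 (-0.86), ARNT2 (-0.73), CBX2 (-0.64), PAX9 (-0.59) and SOX11 (-0.47) fell. None of these 11 calls held without Extracted replicate 2, and most were lost without Extracted replicate 1 or Treated replicate 2. Fewer of the 89 were called without either Control library, which enters the shared estimate of spread. Median-of-ratios scaling split 10 calls into 5 higher and 5 lower, and SOX11 and PAX9 were not called under that scaling. None of the 21 HOX genes was called, with 3 at an unadjusted p under 0.05.

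**Figure D5:**
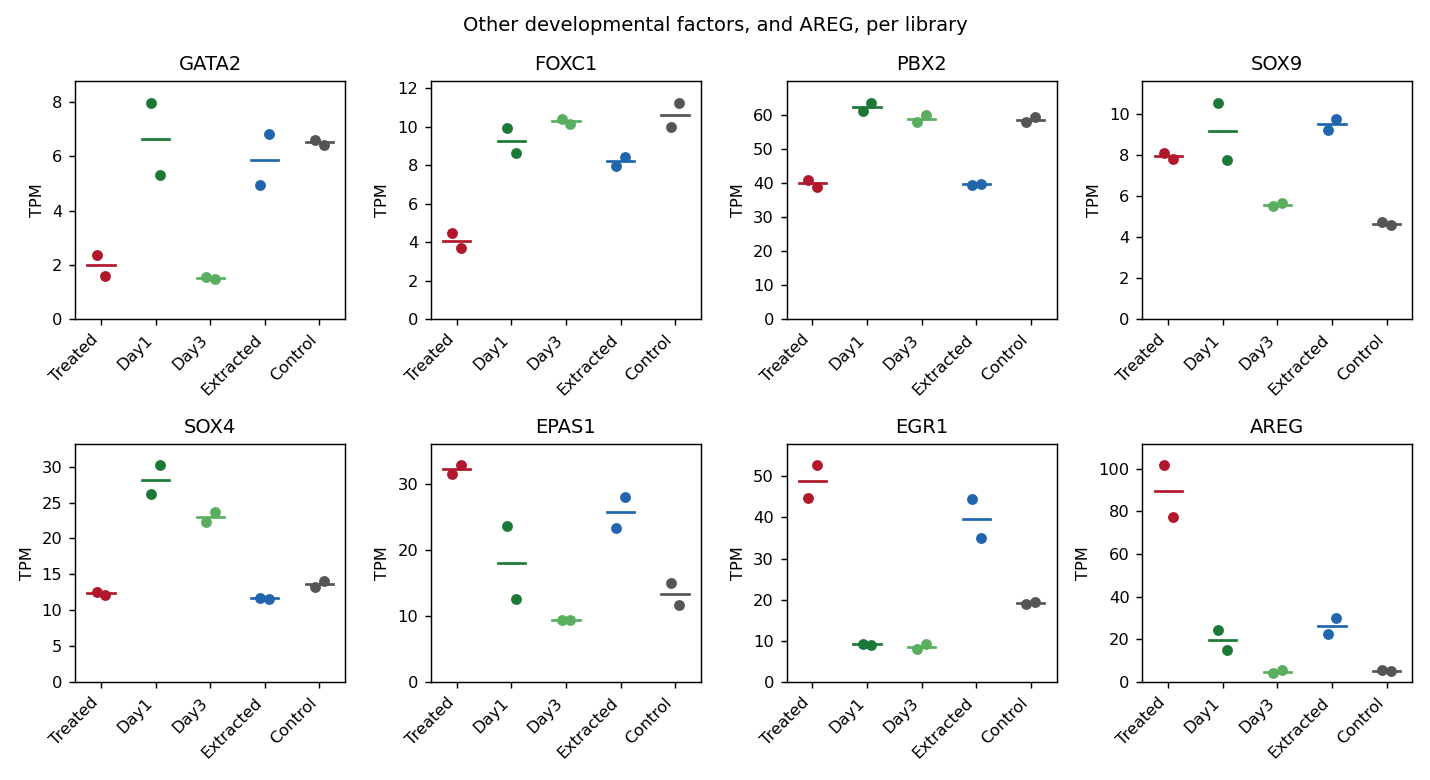
TPM of relatives and partners of the 8 factors, and of AREG, a gene reported as a target of WT1. Points are the 2 libraries of each group on linear axes from 0, and bars are group means. AREG is highest in Treated libraries, and EGR1 is higher in Treated and Extracted than in Day1, Day3 and Control libraries.

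Genes reported elsewhere as targets of PAX8 were mostly too low to test, with 4 of 11 tested. TSHR, the thyrotropin receptor, averaged 12.0 TPM in Treated and 5.90 TPM in Control cells (0.89, limma, adjusted p = 0.00733). It also rose in Day3 (1.11) and Extracted cells (1.00) against Control. TSHR alone of the 4 was called in Day3 against Day1 cells, higher in Day3, where 2.35% of all tested genes were called. FOXE1, a thyroid forkhead factor, rose in Treated (0.63) and Extracted (0.76) and fell in Day3 (-1.05) and Day1 cells (-0.57) against Control. E2F1, a cell cycle factor, fell in Treated (-0.38), Day1 (-0.49) and Day3 cells (-0.45) against Control. Of all tested genes, 24.5% were called in Treated, 20.7% in Day1, 9.82% in Day3 and 1.99% in Extracted cells against Control. Against Control, the calls of TSHR in Treated and Day3 cells and of E2F1 were lost without Control replicate 2, and those of FOXE1 were lost without Control replicate 1. Only FOXE1 was called in Extracted against Day3 cells (1.81, adjusted p = 0.000198), and the call was kept without any 1 of the 4 libraries, while the Extracted against Control calls of TSHR and FOXE1 were lost without any 1. In Treated against Extracted cells none of the 4 was called by limma, and none had an unadjusted p under 0.05. Of all tested genes, 17.1% were called in Extracted against Day3 and 12.1% in Treated against Extracted cells.

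Of 13 genes reported as targets of WT1, 9 were tested. AREG, the EGF-receptor ligand amphiregulin, averaged 89.4 ± 17.2 TPM in Treated and 5.44 ± 0.264 TPM in Control cells (SD, n = 2 each), a log2 fold change of 3.80 with an adjusted p of 1.66e-05. It rose also in Extracted (2.07, adjusted p = 0.005) and Day1 cells (1.64, adjusted p = 0.00186) against Control. It fell in Day3 against Day1 cells (-1.76) and was higher in Treated than in Extracted cells (1.73, adjusted p = 0.00301). SPRY1, a feedback inhibitor of receptor tyrosine kinase signaling, rose in Treated against Control (1.00, adjusted p = 0.0012) and in Extracted against Day3 cells (1.07). In Treated against Control cells SOX9, PODXL (0.48), SPRY1 and AREG rose and BCL2L1 (-0.41) fell, where 6.28% of all tested genes were called higher and 18.2% lower. In Extracted against Day3 cells 5 of the 9 rose and none fell, where 6.30% of all tested genes were called higher and 10.8% lower. The AREG calls in Treated and Day1 against Control and in Treated against Extracted cells were kept without any 1 library, and that in Extracted against Control was lost without Control replicate 1, Control replicate 2 or Extracted replicate 2. The fall of AREG in Day3 against Day1 was lost without Day1 replicate 1 or either Day3 library, and PODXL, SOX9 and BCL2L1 in Treated against Control were lost without either Control library. None of the 9 was called in Day3 against Control cells, where 3 had an unadjusted limma p under 0.05.

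For the 4 factors whose group means spanned at least 1 on the log2 scale, the most similar genes over the 10 libraries were taken from 1287 tested protein-coding genes with at least that span. GAS1, a membrane protein of growth-arrested cells, was the most similar to WT1 (r = 0.991), at 11.8 TPM in Treated, 31.4 in Day1, 45.9 in Day3, 29.7 in Extracted, against 41.7 in Control cells. CLIC5 (r = 0.985) and NPR1, a natriuretic peptide receptor (r = 0.983), came next. TIMM50, a mitochondrial import subunit, was the most similar to NPAS3 (r = 0.988), at 299 TPM in Treated, 671 in Day1, 657 in Day3, 520 in Extracted, against 643 in Control cells, ahead of PKIA and GUCY1A3 (r = 0.985 each).

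SOX3 was most similar to LGALS1, which encodes galectin-1 (r = 0.988), at 340 TPM in Treated, 112 in Day1, 115 in Day3, 226 in Extracted, against 141 in Control cells. ITGA3 (r = 0.981) and LAMA3 (r = 0.979), an integrin and a laminin chain of epithelial adhesion, followed. SOX17 was most similar to ZNF789 and RHOT2 (r = 0.945 each) and to MT-CYB, a mitochondrially encoded gene (r = 0.933). MT-CYB averaged 3806 TPM in Treated, 1531 in Day1, 3290 in Day3, 4446 in Extracted, against 6470 in Control cells. The libraries share their groups and their total, and the coefficients carry no test.

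Markers of the labelled cell type were present, with all 12 ovarian and epithelial markers at 1 TPM or more in every library. Their summed level was 7024 to 8329 TPM in Treated, 6145 to 6992 in Day1, 5978 to 6425 in Day3, 5891 to 5974 in Extracted, against 5288 to 5384 in Control libraries. In Treated against Control cells 7 of the 12 rose, among them KRT19 (1.04), MUC16 (1.21) and FOLR1 (1.47), while CDH1 fell (-0.51), where 6.28% of all tested genes were called higher and 18.2% lower. WFDC2, the HE4 antigen, rose in Day1 (1.07) and Day3 cells (1.13), and CLDN4 likewise (1.12 and 0.77), against Control.

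Markers of other cell types were low or limited to a few genes. The 9 stromal markers summed to 13.5 to 19.5 TPM in Treated, 11.5 in both Day1, 11.1 to 12.3 in Day3, 8.93 to 10.3 in Extracted and 13.9 to 16.9 in Control libraries. The 7 leukocyte markers summed to 8.47 to 10.1 TPM in Treated, 3.06 to 3.93 in Day1, 3.15 to 4.51 in Day3, 3.70 to 4.19 in Extracted and 4.36 to 6.91 in Control libraries. The 5 endothelial markers summed to 2.58 to 2.79 TPM in Treated, 1.33 to 1.85 in Day1, 1.35 to 1.42 in Day3, 1.81 to 2.15 in Extracted and 1.37 to 1.49 in Control libraries. The leukocyte and endothelial sums were thus highest in Treated libraries. ACTA2, a smooth muscle actin, rose in Treated against Control cells (0.80, adjusted p = 0.0412), a call lost without Control replicate 2 or either Treated library. CD14, a monocyte receptor, rose in Treated against Extracted cells (0.85, adjusted p = 0.0283), a call lost without either Extracted library. Among the genes that stayed under 1 TPM in every library were DCN, LUM and PDGFRA, PTPRC, CD3E and LYZ, and PECAM1 and CDH5. No marker was at 0 in every library.

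The summed neural markers were lowest in Treated libraries, where NPAS3 was lowest and SOX3 highest. The 6 neural markers summed to 48.1 to 50.9 TPM in Treated, 87.6 to 100.7 in Day1, 73.8 to 74.8 in Day3, 81.4 to 96.2 in Extracted, against 104 to 107 in Control libraries. TUBB3, a beta-tubulin of neurons and many carcinomas, and MAP2, a microtubule-associated protein, fell in Treated against Control cells (-1.12 each, limma, adjusted p = 0.000561 and 0.00125). The other of the 3 neural markers tested was not called there, where 6.28% of all tested genes were called higher and 18.2% lower. TUBB3 and MAP2 did not move together in every comparison. In Day1 against Control cells MAP2 was called higher and TUBB3 lower, and in Extracted against Day3 cells TUBB3 higher and MAP2 lower. SYP, SNAP25 and ELAVL4 stayed under 1 TPM in every library. The part of these marker changes in the values of the 8 factors was not tested.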

How the data were processed

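RNA was sequenced from 10 OVCAR-3 cultures in 5 groups of 2. The authors deposited 1 table of TPM per gene and library. Per the submitters' processing notes the tools were Trimmomatic, STAR and Cufflinks with GRCh38, and no version is given in the sources used here, nor is an annotation release or a strand setting. The 58313 entries were summed by Ensembl identifier to 58222 genes, of which 57959 matched GENCODE 29 for positions and biotypes.

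The 15167 genes that reached 1 TPM in 2 or more libraries were tested on log2(TPM + 1) with limma 3.58.1 in R 4.3.3. One fit held all 10 libraries, with 1 coefficient per group and a mean-variance trend, which leaves 5 residual degrees of freedom. Tests were two-sided, with Benjamini-Hochberg adjustment over all tested genes in each of 7 comparisons, and fold changes are the first group minus the second. The steps were tested on simulated data. Since p-values rest on 2 replicates per group, they measure only the spread between these cultures.

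The 8 factors and all gene lists were chosen with earlier results of these data known. Beside the 8 factors, the text names up to 3 called genes per list and comparison, by size of change, the 2 most abundant genes of a list without calls, tested genes within 10 kb of a factor, and the 3 tested protein-coding genes most correlated with each factor whose group means span at least 1 on the log2 scale, among genes with that span and at least 5 TPM in a group. Some further called genes were chosen after their values were seen. The alternatives tried were no filter, a filter of 5 TPM, a pseudocount of 0.1 TPM, median-of-ratios scaling, rescaling on nuclear protein-coding genes, a replicate block and leaving out each library. Figures and motif counts used Python 3.11.15. Promoter windows come from RefSeq on GRCh38.p14. SOX17 was given no window. A few listed genes are counted but not reported here by name.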

Additional observations from a re-analysis of the deposited data

How the results depend on the processing

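None of the 16 called fold changes of the 8 factors changed sign under any alternative, and of the 162 calls of listed genes 17 were lost under median-of-ratios scaling and 8 on nuclear genes, with none reversed. Leaving out single libraries weakened far more of the calls of listed genes than either rescaling did. Without a filter on low values, the factors called numbered 3 in Treated, 1 in Day1, 0 in Day3 and 0 in Extracted against Control and 2 in Extracted against Day3. The relatives and partners called were then 4 in Day3 and 3 in Extracted against Control and 0 in Day3 against Day1, and all genes called were 832 in Day3 and 99 in Extracted against Control, 89 in Day3 against Day1 and 1018 in Treated against Extracted. A pseudocount of 0.1 left 0 factors called in Day3 against Control. Median-of-ratios scaling called 649 genes in Extracted against Control and 553 in Day3 against Day1, and 3 factors in Treated against Control and 1 in Day3 against Day1. Rescaling on nuclear genes called 4 factors in Day1 against Control and 2 in Day3 against Day1, 18 relatives in Day3 and 11 in Extracted against Control, and 1038 and 589 genes in Extracted against Control and Day3 against Day1. The cause of these differences was not tested.

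Scaling shifted the split of all called genes. The share called higher in Treated against Control was 25.7%, 51.7% under median-of-ratios scaling and 30.3% on nuclear genes. In Day1 against Control it was 69.6%, 47.0% and 34.2%, in Day3 against Control 52.8%, 40.1% and 24.0%, and in Extracted against Control 43.1%, 49.9% and 23.1%. In Day3 against Day1 it was 28.1%, 39.8% and 38.2%, in Extracted against Day3 36.7%, 52.0% and 50.0%, and in Treated against Extracted 26.7%, 57.3% and 46.6%.

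Leaving out each library in turn gave 1332 to 4173 genes called in Treated, 985 to 4132 in Day1, 216 to 2284 in Day3 and 2 to 673 in Extracted cells against Control. It gave 10 to 839 in Day3 against Day1, 854 to 3233 in Extracted against Day3 and 167 to 3155 in Treated against Extracted. Over the same comparisons the factors called were 3 to 6, 1 to 3, 0 to 3, 0 to 2, 0 to 2, 2 to 5 and 2 to 3, and the relatives and partners 10 to 34, 6 to 22, 2 to 13, 0 to 7, 0 to 13, 12 to 29 and 0 to 13. The lone library left in a group was assumed to vary like the others.

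Replicate numbers did not pair the samples, with correlations of the replicate deviations between groups from -0.022 to 0.087. With the replicate number as a block, limma called 3713 genes, 6 factors and 35 relatives in Treated against Control and 243, 2 and 5 in Extracted against Control, and no count in the 7 comparisons moved by more than 1.5 times. The 2 rescalings of listed genes were chosen after seeing the data. With TPM alone, depth is unknown, and no counting error could be set beside the low values of SOX3 and NPAS3.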
